A study of Mus musculus with 3 samples.

Results

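The cell cycle programme of the immune cells of the healthy mouse kidney was followed through 37 genes, chosen by name from the 32886 gene columns of the deposited count table. They comprised 10 genes of S phase, 24 genes of G2 and mitosis, and 3 genes that are raised in dividing cells but are also used outside division (Stmn1, Hmgb2 and Tubb5, called broad genes here). The 37 genes are also called members below. A gene was taken as present in a cell when its value rounded to 1 or more unique molecular identifiers (UMIs), each of which stands for 1 captured RNA molecule. All 37 genes were detected, and 4952 of 20266 cells (24.4%) held 3 or more of them. These were 2362 of 7508 cells from cortex, 1089 of 6753 from outer medulla (OM) and 1501 of 6005 from inner medulla (IM). The datasets described below enter these pooled counts unequally. Aachen, the shallowest, gave 1395 of the cortex cells and 3677 of the OM cells, so compartments are compared within datasets only.

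All cells came from wild-type, untreated male C57BL/6J mice aged 10 weeks. The kidneys were perfused, divided into cortex, OM and IM and digested with enzymes, and living CD45+ cells, which are the white blood cells, were sorted and sequenced on the droplet-based 10x platform. The work was repeated in Aachen, Bonn and Hamburg, and these 3 datasets served as replicates (n = 3), with the cells of 1 compartment in 1 dataset counted here as 1 library (9 libraries, 23 author-defined clusters). Cell barcodes in Aachen carried 2 suffixes per compartment, 6 in all, so each Aachen library holds 2 sets of cells. The share with 3 or more of the genes was 6.45 and 9.25% in the sets of cortex, 2.29 and 1.37% in those of OM and 7.71 and 3.85% in those of IM. How many mice stood behind each library, and whether mice were pooled, is not given in the sources used here. The p-values therefore rest on differences within each of 3 datasets, which differ in facility and run, and not on single mice.

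Cells that divide switch on their genes in order. In S phase they make nucleotides (Rrm1, Rrm2, Tyms, Tk1), open DNA with the MCM helicase (Mcm2 to Mcm6) and clamp the polymerase to DNA with Pcna. In G2 and mitosis they make the cyclins and kinases that start division and the motors, kinetochore and checkpoint proteins that separate the chromosomes. Resident macrophages of the kidney are known to renew themselves locally by division, whereas neutrophils and monocytes leave the bone marrow after their last divisions, and dendritic cells still divide to a limited degree in tissue.

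Depth differed between datasets and bore directly on how many genes a cell could show. Median depth per cell was 887, 3290.5 and 3011 UMIs in the Aachen, Bonn and Hamburg datasets, and 4.21, 33.1 and 37.6% of their cells held 3 or more cell cycle genes. Cells with 3 or more had a median of 4109 UMIs and 1654.5 genes, against 1729 UMIs and 809 genes in the other cells. Shares were therefore also computed after each cell was thinned to 500 UMIs, which left out 814 shallower cells and gave 261 of 19452 cells (1.34%) with 3 or more genes. In Aachen, 1663 genes were listed at 0 in every cell although Bonn and Hamburg each held 20 or more of their UMIs, Bub1 among them, so that no Aachen value of Bub1 is used. Marker genes went with the author-defined clusters. Macrophage markers contributed 345 of every 10000 UMIs in resident macrophages against 4.63 in T cells, and T cell markers 41.1 in T cells against 0.719 in resident macrophages. Marker genes of a lineage other than the cell's own (2 or more UMIs) were found in 25.9% of all cells and in 40.8% of cells with 3 or more cell cycle genes. No doublet caller was run, and comparisons were repeated without the cells that held such markers. The search covered macrophage, T cell and B cell markers, and the clusters Prolif._cell, Malat+_Macrophage, Malat+_T_cell, pDC and Undefined were not searched. Macrophage markers were not counted in monocytes and conventional dendritic cells, nor T cell markers in NK cells and innate lymphoid cells. The count of 2 UMIs was the same at every depth, and the part of depth in these shares was not tested.

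The 149 cells of the cluster that the authors named Prolif._cell (0.735% of all) carried 46.5% of the UMIs of the genes of G2 and mitosis, 13.6% of those of the S phase genes and 15.0% of those of the broad genes. The clusters were made from the expression of the same cells, so the values by cluster are a description and were not tested. Every one of the 149 cells held 3 or more of the 37 genes, with a median of 17 (range 3 to 35) and a median of 6615 UMIs. For 17 of the 37 genes, more than 50% of all UMIs in the table lay in these cells. This held for 15 of the 24 genes of G2 and mitosis (median 59.6%), for 2 of the 10 S phase genes (median 12.8%) and for none of the 3 broad genes (10.7 to 42.6%).

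Among the mitotic genes, the cyclins and their kinase are given first. Ccna2 (cyclin A, which drives S phase and the entry into mitosis) lay on chromosome 3 at chr3:36564865-36572150 (GRCm38, minus strand) and had 84.1% of its 220 UMIs in the cluster, the highest share of the 37 genes. Its level was 61.1, 186 and 195 CPM (counts scaled to a common library total) in the Prolif._cell cells of Aachen, Bonn and Hamburg, against 0.629, 0.341 and 0.866 CPM in all other cells of the same datasets. It was present in 45.6% of Prolif._cell cells and in 0.139% of the others. The mitotic cyclins Ccnb2 and Ccnb1 had 68.5 and 59.8% of their UMIs in the cluster, and their partner Cdk1, the kinase that triggers mitosis, 43.3%.

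Mki67, the gene of the Ki-67 antigen by which dividing cells are stained in tissue (chr7:135689784-135716361, minus strand), was detected in 67.1% of Prolif._cell cells and 1.57% of the others. Its CPM were 91.7, 938 and 803 in the cluster and 1.51, 5.26 and 14.0 outside it in Aachen, Bonn and Hamburg, which is 60.7, 178 and 57.2-fold. The level in the cluster was lowest in Aachen, the shallowest dataset. Top2a, the topoisomerase that untangles chromosomes (chr11:98992943-99024189, minus strand), reached 298, 799 and 591 CPM in the cluster and 11.7, 5.57 and 13.1 outside it.

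The shares of the remaining mitotic genes ran from 76.1 to 15.0%. Birc5 (survivin) and Aurkb of the chromosomal passenger complex had 76.1 and 37.9% of their UMIs there, and Cdca8, the borealin subunit of the same complex, 45.04%. Among the kinetochore and checkpoint genes the shares were 76.1% for Bub1, 72.5% for Cenpf, 56.4% for Cenpe, 36.3% for Bub1b and 15.0% for Cenpa, the histone of the centromere. Spindle genes ran from Nusap1 (67.2%), Kif11 (65.6%) and Tpx2 (59.4%) to Kif23 (26.0%) and Kif20b (17.3%). Plk1 and Aurka, both mitotic kinases, had 72.4 and 27.8%. Ube2c and Cdc20, genes for ubiquitin-dependent exit from mitosis, had 66.1 and 42.5%, and Cdca3 had 67.6%. Kif23, Kif20b, Cenpa and Aurka were thus the 4 mitotic genes with less than 30% of their UMIs in the cluster.

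S phase genes were shared far more widely with cells outside the cluster. Rrm2, the subunit of ribonucleotide reductase that limits nucleotide supply in S phase, and the thymidine kinase Tk1 were the exceptions, with 62.2 and 51.9% of their UMIs in Prolif._cell. Tyms had 24.9%, and Rrm1, the other subunit of the reductase, 13.1%. The helicase genes held 16.8 (Mcm5), 12.4 (Mcm2), 11.95 (Mcm3), 10.7 (Mcm6) and 7.92% (Mcm4), and Pcna (chr2:132249162-132253314, minus strand) 7.03%, the lowest of the 37. Pcna was present in 61.7% of Prolif._cell cells and still in 15.4% of the others, at 244, 275 and 285 CPM against 60.4, 55.1 and 79.3 CPM in Aachen, Bonn and Hamburg.

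The broad genes were found in nearly every Prolif._cell cell and in many cells outside it. Hmgb2, a chromatin protein that bends DNA (chr8:57511907-57515999, plus strand), was present in 99.3% of the cluster and 40.4% of other cells, with 3117, 2894 and 2507 CPM against 274, 202 and 340 CPM. Tubb5, a tubulin (chr17:35833921-35838306, minus strand), was present in 95.3 and 42.1%, with 1658, 1690 and 1928 CPM against 290, 262 and 281 CPM. Stmn1, a protein that takes microtubules apart, was present in 89.9% of the cluster but in 5.15% of other cells, which set it apart from the other broad genes.

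**Figure D1:**
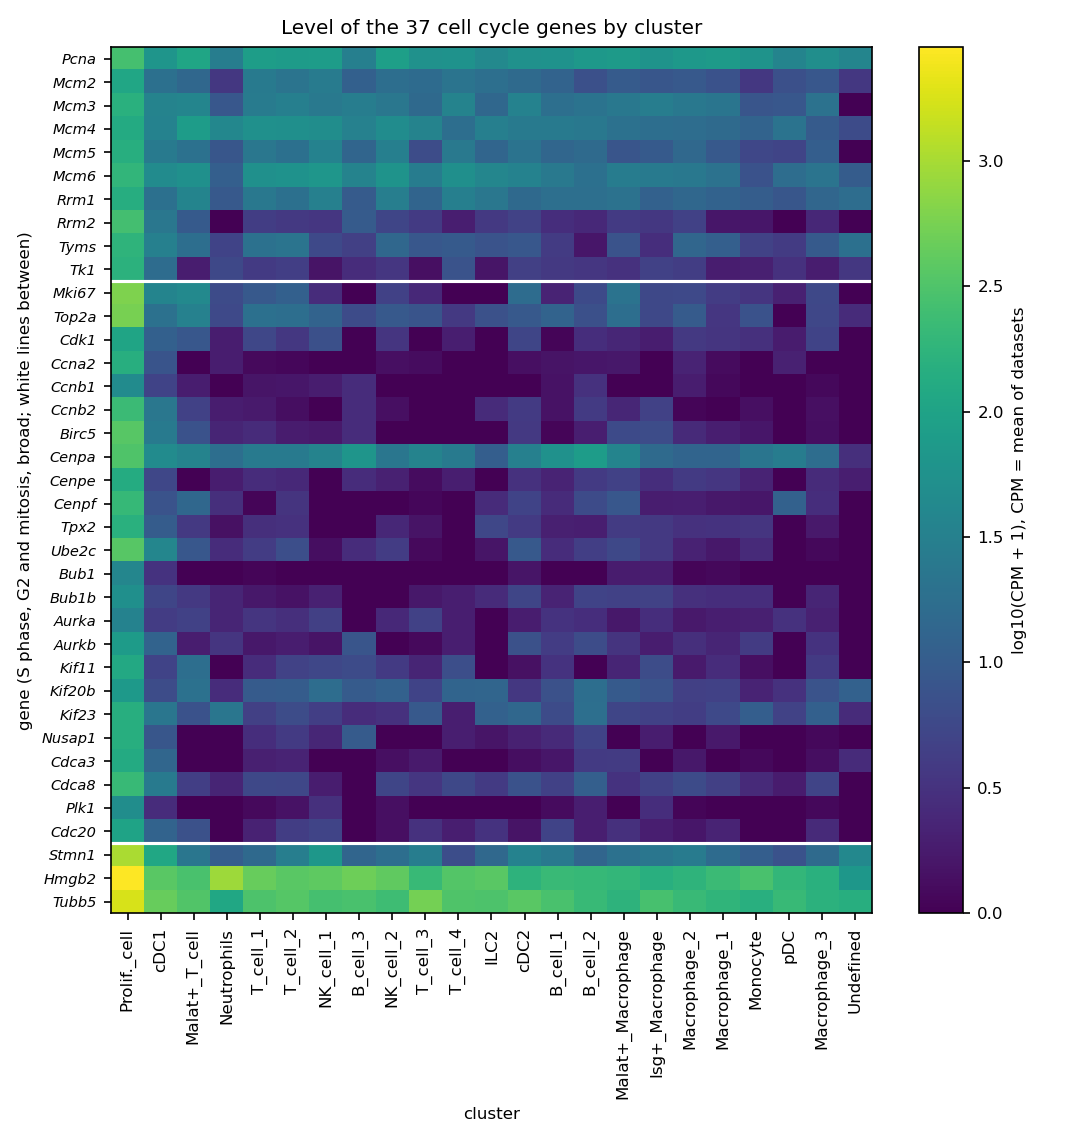
Level of each of the 37 cell cycle genes (vertical axis, grouped into S phase, G2 and mitosis, and broad genes) in the 23 clusters (horizontal axis), as log10(CPM + 1) of the mean over datasets, with bright cells for high levels. The column of Prolif._cell is bright for all 3 groups, the mitotic genes are dim in nearly all other columns, and Hmgb2, Tubb5 and Pcna are visible in every column.

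The upstream sequences of the genes were read to show what the 2 phase groups share in sequence. Genes of G2 and mitosis are known to be held back in resting cells through a short element called CHR (TTTGAA or TTCGAA), often beside CCAAT boxes bound by NF-Y, and S phase genes through E2F sites (searched here as TTTGGCGC, TTTCGCGC or GGCGGGAA). Windows of 300 bases, from 250 before to 50 after the RefSeq start (GRCm38.p6), were found for 32 of the 37 genes and searched on both strands; a window counted once for each motif, and overlapping matches were not separated. CHR letters were found in 17 of 21 windows of G2 and mitosis genes and in 1 of 9 S phase windows (Mcm2), against 19.4% of all 27018 mouse windows. CCAAT was found in 18 of 21 and 7 of 9 (37.9% of all windows), and both together in 16 of 21 and 1 of 9 (7.7% of all). E2F letters were found in 1 of 21 (Cdk1) and 4 of 9 (Mcm3, Mcm5, Mcm6 and Rrm1), against 3.02% of all windows. A match describes the letters in the window and says nothing on whether a factor binds there.

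The 150 bases directly before the start are shown, 5′ to 3′, for 4 genes of G2 and mitosis, 2 of S phase and 1 broad gene, with matches to CHR, CCAAT or E2F letters on either strand in capitals. Mki67 and Top2a are the best known markers of dividing cells, Kif11 is a spindle motor, Cdk1 is the gene whose stretch held all 3 motifs, Mcm5 and Rrm1 held E2F letters and CCAAT without CHR, and Hmgb2 held CHR and CCAAT although it was widely expressed outside Prolif._cell. The positions are chr7:135716380-135716529 (Mki67, minus strand), chr11:99024190-99024339 (Top2a, minus), chr19:37376232-37376381 (Kif11, plus), chr10:69352913-69353062 (Cdk1, minus), chr8:75109359-75109508 (Mcm5, plus), chr7:102441545-102441694 (Rrm1, plus) and chr8:57511693-57511842 (Hmgb2, plus).
Mki67: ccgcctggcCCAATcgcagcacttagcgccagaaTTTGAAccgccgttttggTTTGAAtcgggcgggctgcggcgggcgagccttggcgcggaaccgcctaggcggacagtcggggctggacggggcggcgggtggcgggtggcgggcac
Top2a: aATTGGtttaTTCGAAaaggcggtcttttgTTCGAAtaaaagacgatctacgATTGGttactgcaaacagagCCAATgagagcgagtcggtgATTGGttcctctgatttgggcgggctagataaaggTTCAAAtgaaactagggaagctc
Kif11: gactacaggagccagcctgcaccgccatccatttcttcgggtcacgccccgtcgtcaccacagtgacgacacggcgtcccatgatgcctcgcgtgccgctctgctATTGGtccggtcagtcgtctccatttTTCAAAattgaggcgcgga
Cdk1: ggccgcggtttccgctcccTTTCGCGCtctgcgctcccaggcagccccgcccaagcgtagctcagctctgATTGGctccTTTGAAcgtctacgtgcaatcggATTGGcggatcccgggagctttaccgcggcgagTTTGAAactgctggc
Mcm5: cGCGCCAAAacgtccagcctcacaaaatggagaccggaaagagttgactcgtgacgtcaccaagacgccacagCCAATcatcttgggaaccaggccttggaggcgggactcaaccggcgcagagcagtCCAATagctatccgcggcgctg
Rrm1: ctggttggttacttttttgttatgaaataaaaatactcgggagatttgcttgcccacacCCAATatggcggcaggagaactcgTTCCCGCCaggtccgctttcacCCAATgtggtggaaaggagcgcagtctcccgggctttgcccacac
Hmgb2: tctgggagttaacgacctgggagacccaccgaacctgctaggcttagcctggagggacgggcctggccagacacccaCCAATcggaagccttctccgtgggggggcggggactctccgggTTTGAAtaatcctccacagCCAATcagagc

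Other cell cycle genes, listed apart from the 37, followed the same course in Prolif._cell, again as a description. Of 29 further S phase symbols with 20 or more UMIs, 23 were higher in the cluster than in the other cells of every dataset (median ratio 10.5), and of 47 further genes of G2 and mitosis 34 were (median ratio 24.4), beside 2369 of 14796 genes (16.0%) over the whole table. Genes listed at 0 in Aachen (3 and 7 of these lists) could not count as higher in every dataset, and Pclaf stood under different symbols in Aachen and in the other datasets. Nuf2, a kinetochore gene, had 80.0% of its 70 UMIs there. Genes of the G1 phase and of the E2F family were higher in every dataset for 13 of 22 (median ratio 2.40), and inhibitors of cyclin-dependent kinases and other antiproliferative genes for 3 of 16 (median ratio 1.12). Receptors of growth factors were higher for 1 of 11 (median ratio 0.618). Outside these lists, Mxd3 (80.5% of 77 UMIs), Neil3, a DNA glycosylase (77.5% of 111), and Cdca5, the sororin gene of sister chromatid cohesion (67.0% of 97), were as concentrated in the cluster as the mitotic genes.

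Within the cluster, most cells showed transcripts of both phases. Of the 149 cells, 98 held 3 or more S phase genes and 3 or more genes of G2 and mitosis. The latter count alone was met by 37 cells, the former alone by 9 and neither by 5. Reaching the S phase count alone was thus rarer than reaching both counts or the mitotic count alone. The same count was asked of 10 S phase genes and of 24 genes of G2 and mitosis. The longer list reaches it more easily, so these counts do not give the make-up of the cluster by phase.

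The lineage of each Prolif._cell cell was read from 48 marker genes of 8 lineages, with reference profiles taken from the other datasets. The same procedure recovered 91.5% of the cells in the clusters of these lineages. Recovery was 97.3% for resident macrophages, 88.8% for T cells, 81.0% for type 2 conventional dendritic cells and 78.6% for monocytes. The clusters Malat+_Macrophage and Malat+_T_cell were left out of this check and of the lineage sizes below. T cells were the largest group, with 79 cells (53.0%; 18, 19 and 42 in Aachen, Bonn and Hamburg), followed by 35 resident macrophages (23.5%; 12, 14 and 9) and 15 type 2 conventional dendritic cells (cDC2; 10.1%; 1, 9 and 5). There were 9 group 2 innate lymphoid cells (ILC2), 8 NK cells and 3 monocytes. No cell was read as cDC1 or B cell, and 0 of 149 cells allows a share of up to 2.01%, for counting error only. The reading covers only cells that the authors placed in this cluster. In the cluster cDC1, 13.9% of 303 cells held 3 or more genes of G2 and mitosis, so the absence of cDC1 here does not show that none divide.

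Set against the size of each lineage, the share of T cells in the cluster was 1.16, 1.17 and 1.97% in Aachen, Bonn and Hamburg (1.43 ± 0.465%, mean ± SD, n = 3). Resident macrophages gave 0.393, 1.03 and 0.916% (0.778 ± 0.339%), and cDC2 0.649, 3.64 and 1.77% (2.02 ± 1.51%). T cells lay above resident macrophages in all 3 datasets, while cDC2 spread over both. By phase, 57 of the 79 T cells reached 3 or more genes in both phases, 12 in G2 and mitosis only, 8 in S phase only and 2 in neither. Of the 35 resident macrophages these were 18, 15, 0 and 2. These counts pool datasets of different depth and were not tested. In 29 of the 149 cells (19.5%), 2 or more UMIs of both the T cell and the macrophage lists were found, against 4.34% of the other cells, so that a single lineage is less certain in these; their part in the counts was not tested.

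No difference between compartments in the share of Prolif._cell among all immune cells passed the test. It was 0.932, 0.462 and 0.434% in cortex, OM and IM of Aachen, 0.737, 1.13 and 0.427% in Bonn, then 1.18, 0.855 and 0.875% in Hamburg. The libraries held 7 to 29 such cells each. Cortex averaged 0.951 ± 0.224%, OM 0.815 ± 0.334% and IM 0.579 ± 0.257%. The mean of OM and IM, called medulla, differed from cortex by -0.484 percentage points in Aachen, 0.0403 in Bonn and -0.319 in Hamburg (mean difference -0.254; exact two-sided permutation of the labels within each dataset, p = 0.296, Benjamini-Hochberg adjusted over 6 tests p = 0.556). With 27 arrangements of the labels, the smallest p this design allows is 0.037.

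Of the lineages, the cDCs had the lowest p in this comparison. In cortex, 1 of 66 cells of the cDC lineage (both cDC types, Prolif._cell cells included) lay in the cluster in Aachen, 6 of 145 in Bonn, then 3 of 98 in Hamburg, 2.90 ± 1.32%. In OM these were 0 of 102, 1 of 48 and 1 of 219 (0.847 ± 1.10%), and in IM 0 of 78, 2 of 130 and 1 of 100 (0.846 ± 0.781%). The difference of -2.06 percentage points had the same sign in 3 of 3 datasets and the smallest p the design allows (exact permutation p = 0.037), and the adjusted p was 0.222. The differences were -0.184 points for resident macrophages (exact permutation p = 0.519, adjusted p = 0.622) and -0.0156 points for T cells (p = 1.0), which rest on 35 and 79 cells.

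**Figure D2:**
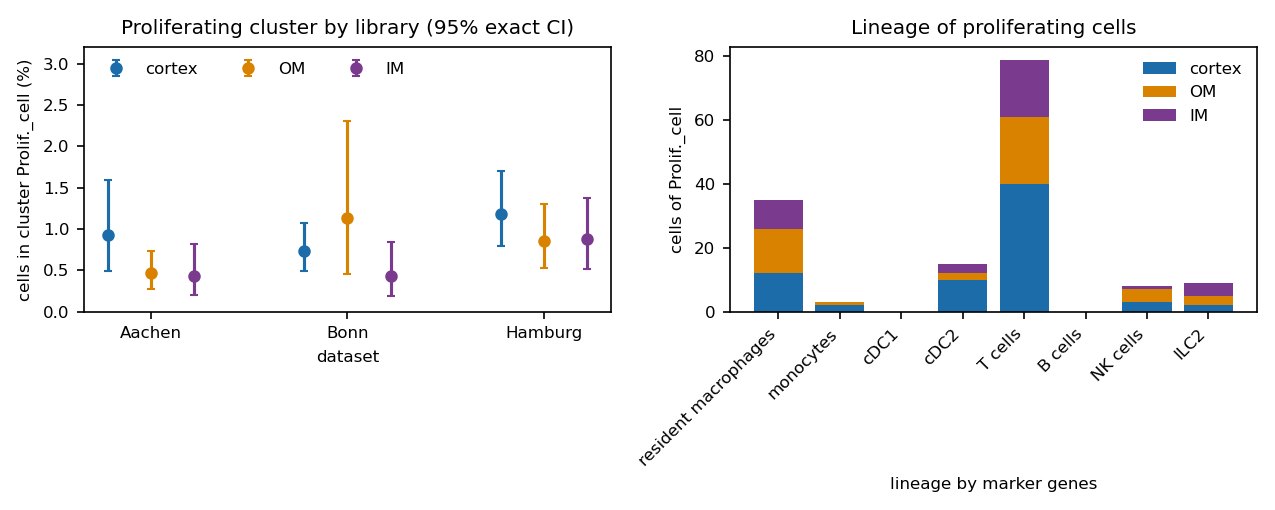
Left, cells of the cluster Prolif._cell as a percentage of all cells of each of the 9 libraries, with exact 95% binomial intervals that cover counting error only; right, number of Prolif._cell cells per lineage, stacked by compartment. The intervals of the compartments overlap in each dataset, T cells (79) and resident macrophages (35) hold the highest bars, and cDC1 and B cells have none.

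Outside Prolif._cell, 4803 cells held 3 or more of the 37 genes, and these were mostly cells with Hmgb2 or Tubb5 and little sign of mitosis. Hmgb2 or Tubb5 was present in 4645 of them (96.7%), and 2522 held no gene of G2 and mitosis. Without the 3 broad genes, 1439 (29.96%) still held 3 or more, against 147 of the 149 Prolif._cell cells. The count of 2 or more genes of G2 and mitosis was met by 643 cells outside the cluster and by 146 inside it.

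By cluster, cDC1 stood next to Prolif._cell both before and after thinning. Of the cDC1, which are the dendritic cells that present antigen to CD8 T cells, 29.3, 64.5 and 65.9% held 3 or more genes in Aachen, Bonn and Hamburg (53.2 ± 20.7%), at a median of 6509 UMIs per cell. After thinning to 500 UMIs this was 5.49, 3.95 and 8.15% (5.86 ± 2.12%), against 77.3 ± 5.63% in Prolif._cell and less than 4% in every other cluster. For cDC2, with 5245.5 UMIs per cell, the values were 11.1, 56.3 and 41.5% unthinned and 1.18 ± 1.07% thinned. Plasmacytoid dendritic cells, deeper still at 7384 UMIs, gave 43.9% unthinned and 1.19% thinned over the 2 datasets in which they could be measured.

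The other cluster that stood apart after thinning was Malat+_T_cell, a shallow T cell cluster of 1018.5 UMIs per cell. It had 2.94, 3.45 and 4.52% of cells with 3 or more genes (3.64 ± 0.805%). Before thinning it had held 18.9 ± 7.54%, less than any of the clusters T_cell_1 to T_cell_4, which gave 31.9 to 36.8% before and 0.672 to 0.813% after. Depth thus changed the order of the clusters. Neutrophils, which have left the cell cycle when mature, gave 14.9 ± 13.7% unthinned (2299 UMIs per cell) and 0.338 ± 0.586% thinned, and monocytes (4092.5 UMIs) 22.5% and 0%. Hmgb2 alone was present in 72.2% of neutrophils. Unthinned shares of the resident macrophage and B cell clusters ranged from 13.3 to 25.2% and from 13.9 to 18.8%; the part of free RNA in these shares was not tested.

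Levels of the gene groups are less bound to the depth of single cells. For G2 and mitosis they again placed Prolif._cell, cDC1 and Malat+_T_cell highest by mean, while the order below differed. Summed over the 24 genes of G2 and mitosis, Prolif._cell reached 2697, 5797 and 4715 CPM in Aachen, Bonn and Hamburg, and cDC1 323, 223 and 452 CPM (333 ± 115). Malat+_T_cell had 143, 96.3 and 382 CPM (207 ± 153), cDC2 67.5, 99.3 and 187 CPM (118 ± 62.0) and Macrophage_1 24.3, 42.4 and 75.2 CPM (47.3 ± 25.8). The cDC1 levels were above those of Malat+_T_cell, cDC2 and Macrophage_1 in 3 of 3 datasets. By mean, B_cell_2 (175 ± 104 CPM) and Malat+_Macrophage (127 ± 60.1 CPM) lay above cDC2, whereas their thinned shares (0.303 and 0.267%) lay below that of cDC2 (1.18%). Ube2c was present in 14.2% of cDC1 (36.98 ± 8.56 CPM), 2.69% of cDC2 and 0.213% of the cluster B_cell_1. Mki67 was present in 11.9% of cDC1, 5.99% of cDC2, 2.93% of neutrophils and 0.293% of B_cell_1 (2429 UMIs per cell).

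**Figure D3:**
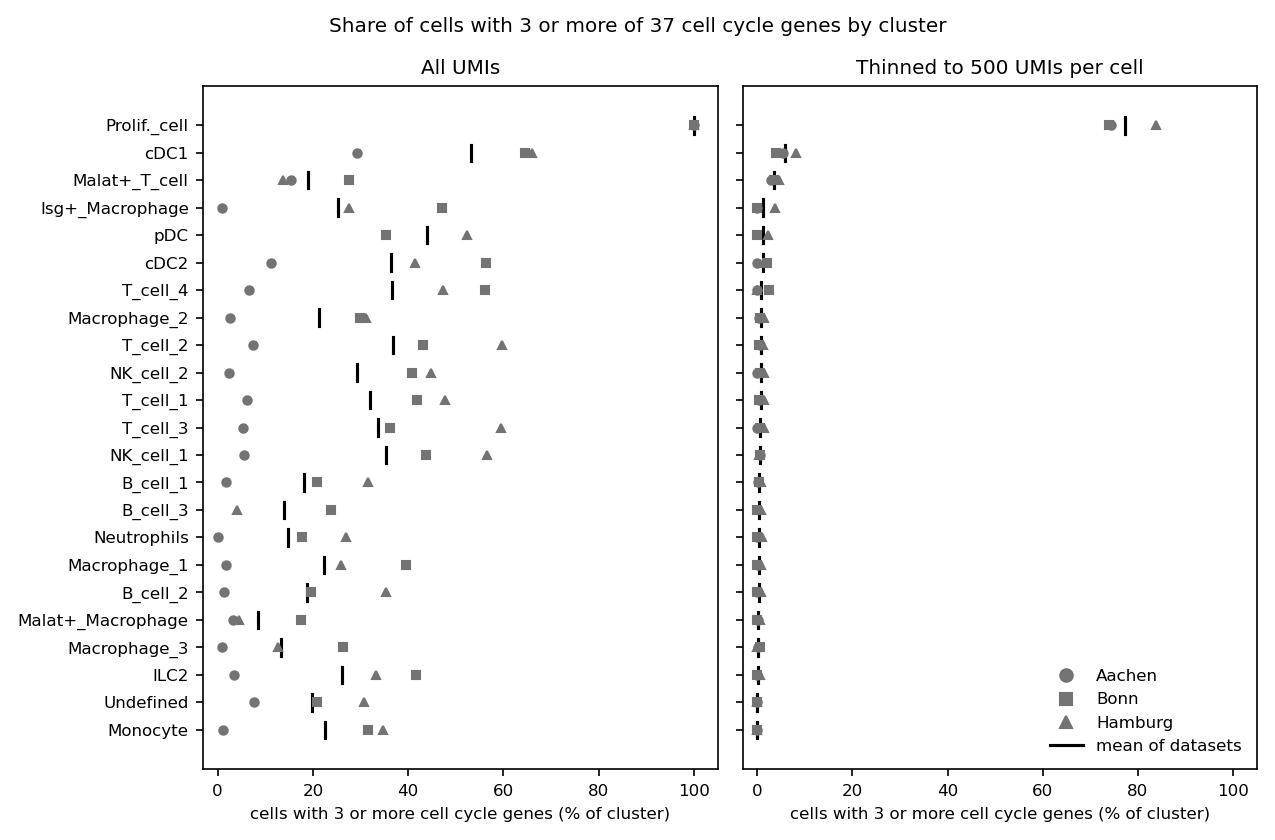
Percentage of cells with 3 or more of the 37 genes in each cluster, by dataset (grey symbols) and as their mean (black bars), from all UMIs on the left and after thinning each cell to 500 UMIs on the right. Nearly all clusters spread widely on the left and fall below 4% on the right, where Prolif._cell (77.3%) and cDC1 (5.86%) remain.

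Whether the share of cells with 3 or more cell cycle genes differed between medulla and cortex was tested in 6 classes of cells. Over all immune cells it was 7.38, 1.96 and 6.07% in cortex, OM and IM of Aachen, 34.1, 29.1 and 32.4% in Bonn, then 41.2, 34.1 and 37.3% in Hamburg. Cortex was highest and OM lowest in each dataset. The medulla differed from cortex by -4.08 percentage points on average (-3.37, -3.31 and -5.55 in the datasets; exact permutation test, two-sided, p = 0.0741, adjusted over 6 classes p = 0.222). Median depth moved with it in Aachen (1270, 744 and 971 UMIs) and Hamburg (3143, 2865 and 3004) but not in Bonn (3209.5, 3259 and 3505), and after thinning the difference was -0.367 points (p = 0.148 by the same exact test, adjusted p = 0.296). With every library given the same make-up of clusters, the difference was -2.17 points (exact permutation p = 0.148).

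Among the 6 classes, the difference was largest in cDCs. In cortex, 18 of 65 cDCs (27.7%) held 3 or more genes in Aachen, 90 of 139 (64.7%) in Bonn and 59 of 95 (62.1%) in Hamburg. In OM these were 10 of 102 (9.80%), 23 of 47 (48.9%) and 94 of 218 (43.1%), and in IM 16 of 78 (20.5%), 70 of 128 (54.7%) and 51 of 99 (51.5%). Cortex was again highest and OM lowest in every dataset, and the medulla differed from cortex by -12.5, -12.9 and -14.8 points (mean -13.4). The exact permutation test gave p = 0.037, the smallest it can give, and an adjusted p of 0.222. Depth and make-up moved with this difference. The median cDC held 4261, 1592.5 and 2396.5 UMIs in cortex, OM and IM of Aachen, 9761, 8391 and 7946.5 in Bonn, then 8763, 4042.5 and 5525 in Hamburg, and cDC1 made up 66.2, 20.6 and 35.9%, 40.3, 14.9 and 10.2%, and 55.8, 26.6 and 24.2% of the cDCs.

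After thinning, the cDC shares were 3.64, 2.59 and 1.98% in cortex, OM and IM, with differences of -1.46, -1.75 and -0.861 points for medulla (exact permutation p = 0.037, adjusted p = 0.222), on 2, 5 and 4 cortical cells. Within each type the result was smaller. For cDC1 the unthinned difference was -6.53 points (exact permutation p = 0.333, adjusted over 8 tests p = 0.778). It had the other sign after thinning (1.75 points) and with 5 or more members (3.38 points). For cDC2 it was -9.40 points, lower in 3 of 3 datasets (exact permutation p = 0.037, adjusted p = 0.296), and -0.262 points thinned (adjusted p = 0.778). How much of the cDC difference lies with depth and how much with the ratio of the types was not tested beyond these values.

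The cDC shares were also taken for each phase alone. The share of cDCs with 2 or more of the 24 genes of G2 and mitosis was 19.0 ± 10.5% in cortex, 13.7 ± 10.3% in OM and 13.1 ± 5.25% in IM. It was lower in medulla in 3 of 3 datasets (-5.61 points, exact permutation p = 0.222, adjusted p = 0.519). The share with 2 or more S phase genes was 23.0 ± 12.02, 18.9 ± 13.1 and 24.02 ± 14.1%, lower in 2 of 3 datasets (-1.48 points, exact permutation p = 0.519, adjusted p = 0.519). Neither passed the test, and the difference between the phases was not tested.

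In the other classes the mean differences were smaller. Resident macrophages gave 21.1 ± 14.8% in cortex, 18.6 ± 16.1% in OM and 20.6 ± 15.8% in IM (difference -1.44 points, exact permutation p = 0.333, adjusted p = 0.5), and T cells 34.1 ± 23.0, 31.9 ± 26.6 and 35.2 ± 24.8% (-0.564 points, p = 0.815 by the same exact test). B cells gave 16.9 ± 13.1, 15.1 ± 13.8 and 17.7 ± 12.6% (-0.451 points, exact permutation p = 0.889). Monocytes in medulla differed from those in cortex by 1.56 points (Aachen), -11.99 points (Bonn) and -12.2 points (Hamburg; exact permutation p = 0.111, adjusted p = 0.222). The mean difference changed sign with the number of genes asked for in resident macrophages, T cells and B cells, and no monocyte was positive after thinning.

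**Figure D4:**
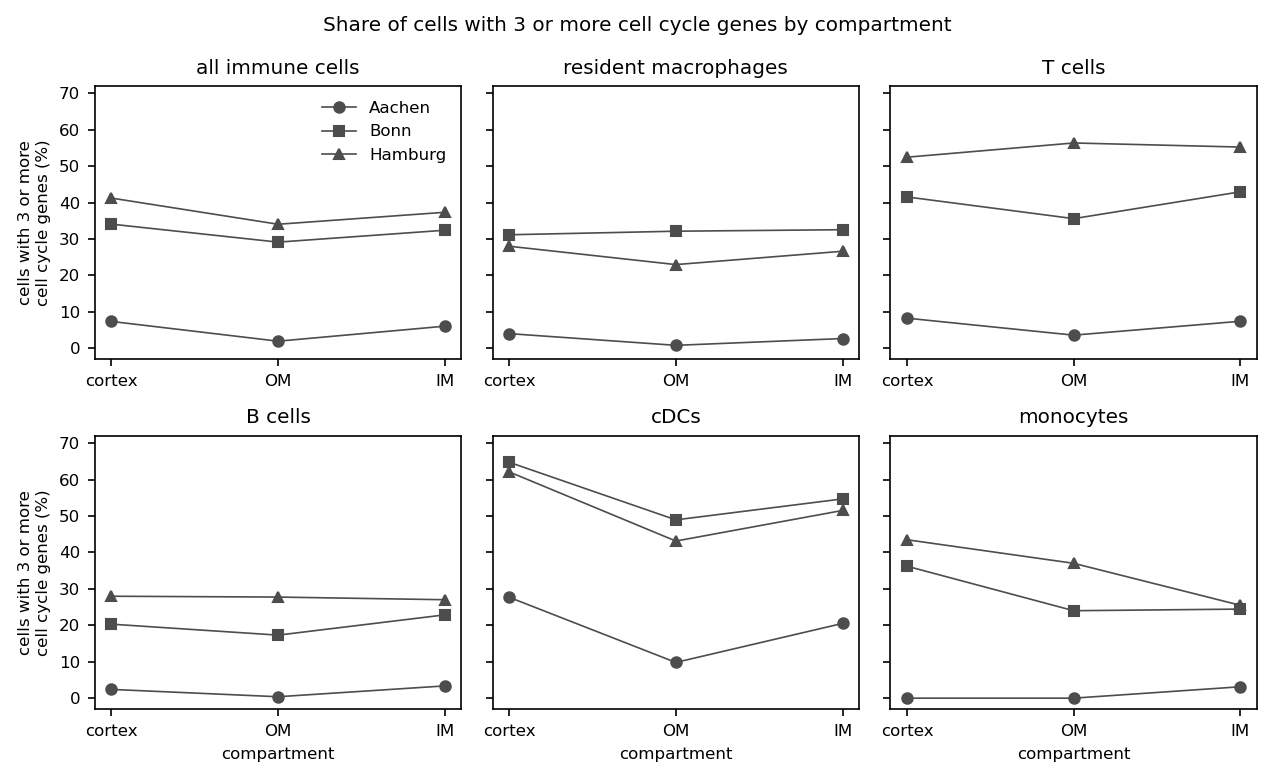
Percentage of cells with 3 or more of the 37 genes in cortex, OM and IM for 6 classes of cells, with 1 line per dataset. In cDCs and in all immune cells the 3 lines dip at OM and lie highest in cortex. The lines of resident macrophages, T cells and B cells follow no compartment order common to the 3 datasets. Aachen lies below the other datasets in each class.

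Levels of the members were then compared gene by gene, with the counts summed per library and class and tested with edgeR against all genes. No member was called in any class at an adjusted p under 0.05. Of 36, 12, 13, 13 and 20 members that passed the filter on low counts in all immune cells, resident macrophages, T cells, B cells and cDCs, 3, 0, 1, 2 and 6 had an unadjusted p under 0.05, and DESeq2 called 0 in each class as well. Over all genes tested, edgeR called 0.00777, 1.12, 0.0117, 0.0349 and 1.89%, and 11.7, 10.0, 5.91, 3.25 and 12.2% had an unadjusted p under 0.05. The share of cDC members with a low p (6 of 20) was above that background in edgeR, but with DESeq2 it was 2 of 20 and without the dataset block 0 of 20.

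The most abundant members of each group are given by library. Pcna measured 87.1, 43.8 and 69.8 CPM in cortex, OM and IM of Aachen, 59.9, 62.8 and 52.9 in Bonn, then 86.3, 79.6 and 87.0 in Hamburg, with no common order. Mcm6, a helicase subunit, measured 21.7, 12.05 and 21.2, then 38.5, 26.8 and 31.3, then 59.1, 47.3 and 57.7 CPM, highest in cortex and lowest in OM each time (log2 fold change of medulla -0.29 ± 0.10, mean ± SE, adjusted p = 0.340 in edgeR). Mcm4 of the same complex measured 18.8, 6.76 and 10.2, then 36.5, 25.6 and 25.5, then 56.5, 45.1 and 51.8 CPM, with cortex above both parts of the medulla in all datasets (-0.48 ± 0.14, adjusted p = 0.296).

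Of the mitotic genes, Mki67 was at 12, 0 and 12 UMIs in Aachen, 261, 103 and 92 in Bonn, then 332, 259 and 219 in Hamburg. As CPM these were 5.65, 0 and 4.70, then 17.1, 38.3 and 10.5, then 37.02, 30.2 and 30.1, so that OM held the lowest level in Aachen and the highest in Bonn. Top2a measured 23.6, 10.9 and 17.6, then 16.2, 24.5 and 11.8, then 31.9, 20.4 and 27.8 CPM, with OM again the highest in Bonn alone. Cenpa measured 27.8, 22.3 and 29.4, then 23.4, 28.6 and 21.3, then 52.6, 52.3 and 51.8 CPM. These 3 mitotic genes thus had no compartment order common to the datasets.

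Of the broad genes, Hmgb2 measured 447, 240 and 322 CPM in Aachen, 265, 261 and 179 in Bonn, then 473, 335 and 357 in Hamburg. Cortex was the highest in each dataset (log2 fold change -0.44 ± 0.13, adjusted p = 0.296 in edgeR). Tubb5 measured 323, 282 and 343, then 301, 247 and 253, then 338, 283 and 343 CPM, and Stmn1 59.8, 34.1 and 40.4, then 34.8, 40.5 and 27.1, then 61.7, 51.2 and 55.9 CPM. Over all members tested in all immune cells, 30 of 36 had a fold change below 0 (49.4% of all genes) and 11 of 36 were lower in 3 of 3 datasets (22.4% of all genes). The median was -0.24 on the log2 scale, against 0.00 over all genes. Without the cells of Prolif._cell, 21 of 32 were below 0 with a median of -0.05, and after thinning 12 of 16 with a median of -0.07. In the same fit, the median was 0.60 for resident macrophage markers and -0.63 for T cell markers, and their part in the members' values was not tested.

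In cDCs most fold changes were again negative. Fold changes were below 0 for 16 of 20 members tested (50.9% of all genes), 8 of 20 were lower in 3 of 3 datasets (15.3% of all genes) and 1, Rrm1, was higher in 3 of 3. The median log2 fold change was -0.69 for 8 genes of G2 and mitosis, -0.52 for the 3 broad genes and -0.09 for 9 S phase genes, against -0.01 over all genes. Hmgb2 in cDCs measured 401, 174 and 385 CPM in cortex, OM and IM of Aachen, 211, 191 and 135 in Bonn, then 363, 268 and 210 in Hamburg (-0.52 ± 0.16, adjusted p = 0.129). Cortex was the highest in every dataset, and this was the lowest adjusted p of any member in any class for medulla against cortex. In resident macrophages, T cells and B cells, 7 of 12, 4 of 13 and 9 of 13 members tested had fold changes below 0, against 48.6, 49.5 and 49.9% of all genes.

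Mki67 in cDCs was at 3, 0 and 0 UMIs in Aachen, 31, 7 and 3 in Bonn, then 47, 68 and 21 in Hamburg, or 22.9, 17.9 and 2.73 CPM in Bonn and 57.2, 56.1 and 32.2 CPM in Hamburg. The medulla was lower in all 3 datasets (log2 fold change -0.88 ± 0.30, adjusted p = 0.187), and IM against cortex gave -1.48 ± 0.39 (adjusted p = 0.0794). Cdca8 was at 6, 1 and 7, then 17, 4 and 4, then 24, 15 and 2 UMIs (-1.24 ± 0.45, adjusted p = 0.222), Ube2c at 11, 2 and 7, then 23, 6 and 7, then 18, 20 and 10 (-0.70 ± 0.33, adjusted p = 0.401), and Ccnb2 at 6, 0 and 4, then 14, 5 and 2, then 15, 16 and 3 (-1.06 ± 0.50, adjusted p = 0.405). These are small counts, and none of these genes passed the adjusted test with all datasets and the filter in place. Without the filter on low counts, Hmgb2 and Stmn1 were called in cDCs (edgeR adjusted p = 0.0127 and 0.0193), and without the Bonn dataset Hmgb2 was (adjusted p = 0.0134). In the same fit, markers of cDC1 were lower in medulla for 4 of 5 genes (the chemokine receptor Xcr1, -1.21 ± 0.14, adjusted p = 0.000179), markers of cDC2 were higher for 4 of 5 (the lectin Mgl2, 1.84 ± 0.24, adjusted p = 0.000265) and tubule transcripts for 2 of 2 (Kap, 5.09 ± 0.81, adjusted p = 0.002).

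Cell cycle genes outside the 37 were read in the same fit. In cDCs, edgeR called 0 of 13 further S phase genes and 0 of 14 further genes of G2 and mitosis, with an unadjusted p under 0.05 for 2 and 3, and DESeq2 called 0 of both. Their medians were -0.40 and -0.20 on the log2 scale. Of 13 genes of G1 and the E2F family 1 was called, the G1 cyclin Ccnd2, higher in medulla in 3 of 3 datasets (1.22 ± 0.15, adjusted p = 0.000247).

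**Figure D5:**
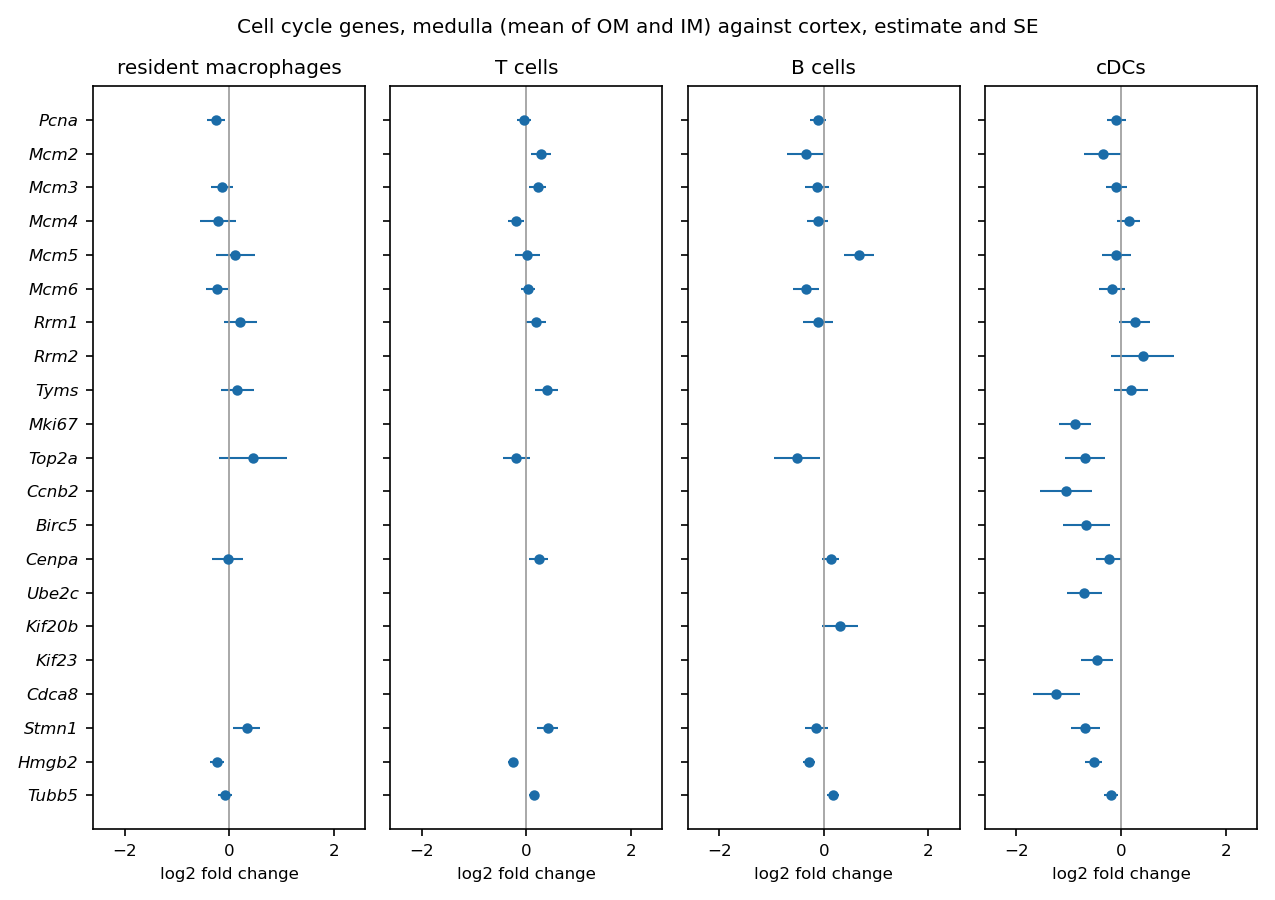
Log2 fold change of medulla (mean of OM and IM) against cortex for the members tested in resident macrophages, T cells, B cells and cDCs, as the edgeR estimate with its standard error. In cDCs 16 of 20 points lie below 0, in the other classes the points scatter around 0, and no member was called at an adjusted p under 0.05.

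Finally, cells with 3 or more members were compared with the other cells of the same class and dataset, to see which genes outside the 37 differ with them. The members chose the cells and are not tested here. Counts were summed per dataset and state, with at least 301, 52, 101 and 44 cells in each sum for all immune cells, resident macrophages, T cells and cDCs, while B cells fell to 19 cells and could not be fitted. Over all immune cells, 124 of 12624 genes were higher (0.982%) and 165 lower (1.31%) in the positive cells. Of further S phase genes 13 of 26 were higher and of further genes of G2 and mitosis 22 of 39, with medians of 1.09 in both on the log2 scale against -0.03 over all genes.

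Uhrf1, which copies DNA methylation marks, was higher by 3.01 ± 0.35 (adjusted p = 0.00121) and the kinetochore gene Nuf2 by 3.86 ± 0.56 (adjusted p = 0.00446), each in 3 of 3 datasets. E2f1 and E2f8 were higher by 0.99 ± 0.18 and 2.34 ± 0.35. Without the cluster Prolif._cell, 4 of 26 and 1 of 32 further cell cycle genes were still higher, beside 53 of 12557 genes higher (0.422%) and 140 lower (1.11%). After thinning, 8 of 21 and 15 of 22 were, with medians of 1.88 and 1.77 against -0.41 over all genes, beside 53 of 8841 genes higher (0.599%) and 104 lower (1.18%). Kit, a receptor of mast cells and progenitors (1.02 ± 0.20, adjusted p = 0.0244) and the mast cell protease gene Cpa3 (3.19 ± 0.37, adjusted p = 0.00103) were also higher, while 5 of 6 B cell markers and 4 of 5 neutrophil markers were lower. In these sums over all immune cells, a different level per cell and a different number of cells of a class cannot be told apart.

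Within the cDCs, further genes of both phases were higher in positive cells. Higher in positive cDCs were 48 of 6884 genes (0.697%) and lower 116 (1.69%); among them were 6 of 12 further S phase genes and 6 of 15 further genes of G2 and mitosis, with medians of 1.51 and 0.73 against -0.02 over all genes. Mcm7, another helicase subunit, was higher by 2.91 ± 0.45 (adjusted p = 3.15e-06), the DNA ligase Lig1 by 2.54 ± 0.43 (adjusted p = 2.87e-05) and Dut, which removes uracil nucleotides, by 1.87 ± 0.29 (adjusted p = 2.3e-06), each in 3 of 3 datasets. Gmnn, Tipin and Hells, which guard and assist replication, were higher by 1.84, 1.66 and 1.37, and the cyclin-kinase partners Cks1b and Cks2 by 1.49 and 1.25. Outside the lists, Cdca7 was higher by 3.48 ± 0.53 (adjusted p = 2.01e-06). Of markers of other lineages in the same fit, 2 of 4 monocyte markers and 1 of 3 B cell markers were called higher, and the T cell markers had a median of 1.05 (0 of 4 called in edgeR, 3 with an unadjusted p under 0.05). Their part in these results was not tested. Positive were 165 of 303 cDC1 and 266 of 668 cDC2, so a different level per cell and a different ratio of the types cannot be told apart here.

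Among the 116 genes lower in positive cDCs were Ccr7, Ccl5 and Fscn1, which stand outside the lists, and 3 of 5 cDC2 markers (cDC1 markers: 0 of 5 called by edgeR, 3 with an unadjusted p under 0.05). Ccr7, the receptor that leads mature dendritic cells to lymph nodes, was lower on the log2 scale (-1.56 ± 0.19, adjusted p = 5.22e-09), the chemokine Ccl5 gave -1.60 ± 0.14 (adjusted p = 6.75e-15) and Fscn1, the fascin of mature dendritic cells, -1.31 ± 0.20, a call lost in an alternative. The cDC2 markers Cd209a, Mgl2 and Clec10a gave -1.06, -1.04 and -0.96, and the G1 cyclin Ccnd2 -0.86. Of the 24 called cDC genes that were followed through the alternatives, 6 were called in every alternative that tested them (Ccl5, Ccr7, Cdca7, Dut, Lig1 and Mcm7). The fit without the dataset block is left out of this count, and Lig1 was not tested without mixed-lineage cells. Fits with thinning or with 5 or more members were not run in cDCs, as their sums held as few as 5 and 16 cells. Depth was thus not matched in any alternative for cDCs. Without mixed-lineage cells, 2 of 8 further S phase genes and 2 of 12 further genes of G2 and mitosis were called, and DESeq2 on all cDCs called 3 of 12 and 2 of 15. The 48 and 116 called genes became 24 and 37 without Aachen and 21 and 53 without Hamburg.

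In resident macrophages and T cells, few further cell cycle genes were called. Of 15 further S phase genes in macrophages 1 was higher (Dut, 1.13 ± 0.29, adjusted p = 0.0165), and of 17 further genes of G2 and mitosis 1 (Tubb4b, 0.65 ± 0.18), beside 62 of 9696 genes higher (0.639%) and 7 lower (0.0722%). In T cells edgeR called 0 of 17, with an unadjusted p under 0.05 for 2, and 1 of 22 (Tuba1b, 0.39 ± 0.09, adjusted p = 0.00544), beside 40 of 9761 genes higher (0.41%) and 32 lower (0.328%). Markers of other lineages moved with them. In positive macrophages 4 of 4 T cell markers were higher (Cd3g, 1.91 ± 0.26) and 2 of 3 monocyte markers (Ly6c2, 1.57 ± 0.17), and in positive T cells 6 of 9 macrophage markers (C1qa, 1.02 ± 0.13) and 4 of 6 B cell markers (Cd79a, 1.01 ± 0.12). Without mixed-lineage cells, edgeR called 0 of 12 and 0 of 14 further cell cycle genes in macrophages (unadjusted p under 0.05 for 6 and 3) and 0 of 16 and 0 of 19 in T cells (1 and 4). DESeq2 on all cells of the class called 0 in both lists and both classes.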

How the data were processed

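Droplet-based single-cell RNA sequencing was done on CD45+ cells of kidney cortex, outer medulla and inner medulla. The authors mapped the reads with Cell Ranger to mm10 and filtered, integrated and clustered the cells in Seurat (the version of Cell Ranger is not given in the sources used here). The deposited values are expected counts of UMIs per gene and cell, without scaling: whole numbers in Aachen and Bonn, estimated counts just below whole numbers in Hamburg, and they were rounded. The cells in the table hold 201 to 3999 genes, a range set before deposit whose part in the results was not tested. Groups come from the compartment labels, and cell classes from the authors' clusters.

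Members and lists were chosen with earlier results of these data known. Shares of cells were compared by exact permutation of the cortex label within each dataset (27 arrangements), adjusted by Benjamini-Hochberg, for classes with 20 or more cells in every library. Counts summed per library and class were filtered (filterByExpr), scaled by TMM and tested, dataset being the block, by the quasi-likelihood functions glmQLFit and glmQLFTest (edgeR 4.0.16 under R 4.3.3; threshold 0.05); DESeq2 1.42.0 was the alternative, and the other steps used scipy 1.17.1 and pandas 2.3.3 in Python 3.11.15. The edgeR fits were tested on simulated data. That libraries pair by dataset was checked on log CPM, after the mean of each compartment over the 3 datasets was subtracted. Correlations of these deviations were at least 0.679 within a dataset and at most 0.608 between datasets, in every class. The subtraction itself lowers correlations between datasets.

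Values per library are given for the 3 most abundant members of each group and for cDC members with a low p (the latter chosen after their values were seen). From other lists up to 8 called genes, and outside the lists up to 10 per direction, were eligible to be named, by size of change and with the same sign in every dataset. Alternatives were other counts of genes per cell, thinning, leaving out the broad genes, mixed-lineage cells, the cluster Prolif._cell or each dataset, other scaling and no filter. The alternatives without Prolif._cell, with thinning and fewer genes together, and with cDC1 and cDC2 apart were chosen after seeing the data.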

Additional observations from a re-analysis of the deposited data

Results flagged for a closer look

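The difference in Stmn1 between medulla and cortex had opposite signs in T cells and cDCs. In T cells its level was higher in medulla than in cortex in every dataset (log2 fold change 0.41 ± 0.20 in edgeR, adjusted p = 0.883), at 7.49, 30.9 and 25.3 CPM in cortex, OM and IM of Aachen, 18.3, 20.5 and 20.9 in Bonn, then 24.7, 30.8 and 27.7 in Hamburg. In cDCs it was lower in medulla in every dataset (-0.68 ± 0.28, adjusted p = 0.287), at 139, 67.5 and 57.0 CPM in Aachen, 59.0, 68.9 and 12.7 in Bonn, then 84.0, 60.3 and 88.8 in Hamburg. Neither change passed the adjusted test, the libraries held 12 to 80 UMIs of Stmn1 in cDCs and 4 to 91 in T cells, and the difference between the classes was not tested.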

How the results depend on the processing

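The lower medullary share of positive cells kept its sign in cDCs as a whole under all alternatives run, though not in cDC1 after thinning or with 5 or more members. In the other classes the sign changed as follows, with the causes not tested (percentage points, medulla minus cortex). With 2 or more genes of G2 and mitosis the difference was 0.129 in all immune cells, 0.812 in resident macrophages, 0.637 in B cells and 1.40 in T cells, and after thinning 0.0163 in all immune cells, 0.353 in both macrophages and B cells, and 0.163 in monocytes. With 5 or more members it was 0.222 in macrophages, 0.416 in T cells (0.976 with 4 or more) and 0.236 in B cells. Without the broad genes it was 0.614 in macrophages, 0.945 in T cells and 0.0965 in monocytes, and with 2 or more of the others after thinning 0.188 in macrophages, 1.14 in B cells (higher in 3 of 3 datasets, exact permutation p = 0.037, adjusted p = 0.222) and 0.147 in monocytes. Thinning alone gave 0.436 in B cells and 0 in monocytes. IM against cortex gave 0.849 in B cells, 1.11 in T cells, and OM against IM 2.65 in monocytes. Leaving out 1 dataset moved the T cell difference between -2.52 (without Hamburg) and 0.531 (without Aachen), with 0.295 without Bonn. After thinning, the shares were 77.3% in Prolif._cell, 5.86% in cDC1, 0.672% in T_cell_3 and 0% in monocytes.

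Counts of genes called between medulla and cortex (1, 93, 1, 3 and 129 in all immune cells, resident macrophages, T cells, B cells and cDCs) moved with most settings. They were 69, 46, 0, 0 and 57 with DESeq2, and 22, 379, 97, 80 and 272 without the filter on low counts, where 2 members were called in cDCs. Thinning gave 57 in all immune cells, 25 in macrophages, 1 in B cells and 30 in cDCs. Leaving out 1 dataset gave 2 to 14, 6 (without Hamburg) to 241 (without Aachen), 0 (without Hamburg) to 31 (without Bonn), 12 to 34, and 0 (without Hamburg) to 155 (without Bonn), with 0 to 1 members in cDCs. Between cells with 3 or more members and other cells, 124 genes were higher and 165 lower over all immune cells. The numbers higher were 216 with 5 or more members, 53 after thinning, 355 without mixed-lineage cells and 53 without Prolif._cell, and those lower 94 with DESeq2, 104 after thinning and 663 without mixed-lineage cells. Higher and lower genes numbered 8 and 0 with DESeq2 and 16 and 2 without mixed-lineage cells in macrophages, 12 and 1, then 7 and 21 in T cells, and 8 and 15, then 7 and 5 in cDCs. Leaving out 1 dataset gave 62 to 552 higher and 103 to 676 lower over all immune cells (highest without Bonn), 29 to 94 and 2 to 20 in macrophages, 13 to 54 and 3 to 53 in T cells, and 21 to 35 and 37 to 65 in cDCs. The chemokine gene Ccl1, higher in positive T cells by 2.31 on the log2 scale, turned to -0.63 without mixed-lineage cells (edgeR adjusted p = 0.899).

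Libraries of a dataset were treated as paired, and without this replicate block edgeR called 0 genes in each class in both comparisons, with 13 to 128 genes between compartments and 23 to 156 genes between states at an unadjusted p under 0.05. Limits: the medullary comparisons rest on 3 datasets, Aachen cells were shallow, thinned shares rest on few cells, and mitotic genes were below the filter in most classes, so small differences were not detectable at this depth.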

Other observations

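Cells with 10 or more of the 37 genes numbered 227, of which 130 lay in Prolif._cell (22 of 39 cells in Aachen, 40 of 42 in Bonn and 68 of 68 in Hamburg) and 97 in other clusters (0.482% of 20117 cells). Of the 97, 30 were cDC1 (9.90% of 303 cells; 6 of 92, 4 of 76 and 20 of 135 in the datasets) and 21 were cDC2 (3.14% of 668; 0 of 153, 12 of 238 and 9 of 277), together 52.6%. The clusters Macrophage_2, T_cell_1 and T_cell_2 held 8 each. No such cell was found among 3759 B_cell_1 cells, 424 ILC2 and 99 plasmacytoid dendritic cells. Of the cDC1, 17.8% held 3 or more S phase genes and 13.9% held 3 or more genes of G2 and mitosis, against 10.0 and 4.04% of the cDC2, 4.76 and 1.10% of neutrophils and 2.24 and 0.980% of monocytes. These are shares of cells at different depths and were not tested.

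Hmgb2 reached 1491, 768 and 438 CPM in the neutrophils of Aachen, Bonn and Hamburg. This was the highest level of any cluster but Prolif._cell in Aachen (25 neutrophils) and Bonn (51 neutrophils). In Hamburg (197 neutrophils), T_cell_1 (526 CPM), NK_cell_2 (510 CPM) and T_cell_2 (445 CPM) lay above the neutrophils. Rrm2 was at 0 UMIs in the 273 neutrophils. Among 20042 cell barcodes, 221 were found in more than 1 library, 31 of them within a dataset.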
